A study of Mus musculus with 30 samples.

Results

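Between Ighd1-1, the D segment of the main D array that lies farthest from JH, and the first V segments, the mouse heavy-chain locus holds a stretch with few annotated gene segments, and most joins that fall there are cryptic: they use sequence that is no V, D or J segment. Joins were collected by position alone, from chromosome 12, 114734667 to 114830704 of the bone marrow alignment target (96.0 kb, leaving out a D segment at 114783964 to 114784180) and, in v-Abl cells, from the V-side end of Ighd1-1 over 79.5 kb of mm9, which stops short of V. They numbered 8293 of 2074993 junctions, or 0.400% of all. Bone marrow pro-B cells gave 4052 of 1139295 junctions and v-Abl cells 4241 of 935698. HTGTS-V(D)J-seq, the assay used, reads outward from a bait primer at JH4, so each junction marks what was joined to that JH segment.

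Pro-B cells from the bone marrow of 129SV mice, sorted as B220+, IgM- and CD43+, made up 6 groups of 3 libraries: WT, CBE1&2-/- (called CBE12mut), CBE1-/- (CBE1mut), CBE1inv/inv (CBE1inv), CBE2-/- (CBE2mut) and CBE2inv/inv (CBE2inv). CBE1 and CBE2 are the pair of CTCF-binding elements of IGCR1, the intergenic control region 1, which is known to lie in this interval. The v-Abl cells are a transformed C57BL/6 pro-B line, in which every group was RAG1-/- with Emu-Bcl2, a WAPL degron and a single Igh allele. They received RAG1/2 by retrovirus and STI-571 at 3 µM for 4 days, which arrests the cells. The 4 v-Abl groups of 3 libraries were the parent line (WT) and a line with the 3IghCBEs deletion (3CBEdel), each untreated or with IAA at 150 µM and Dox at 2 µg/mL for the last 3 days. The labels name no separate mice or cultures behind the libraries of a group, so p-values measure the spread between these libraries, which may be technical.

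V(D)J recombination cuts DNA at recombination signal sequences, each a heptamer (CACAGTG in its ideal form, of which CAC matters most), a spacer of 12 or 23 bases and an A-rich nonamer, and joins a signal with the short spacer to one with the long spacer. D segments have short-spacer signals on both sides, V and JH segments have long-spacer signals. Cohesin-driven loop extrusion brings chromatin past the recombination center at JH, where RAG can also act on isolated heptamer-like sequences, and IGCR1 is known to hold that scanning back from the V segments.

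Joins clustered at few sites, and the sequences at the most used of these sites are given first because all results below turn on them. Each is read from mm9 on the coding (minus) strand of chromosome 12, 5′ on the V side to 3′ on the JH side, with the heptamer in capitals. The heptamer in capitals begins with CAC within 3 bases, to either side, of 1 join position. That position is the one nearest JH with at least 5% of the site's joins. Where several began there, the best match to CACAGTG was taken, so the choice favours matches. The joins of a site lay at the V-side edge of its heptamer or some bases to either side. Sites are named by distance from the V-side end of Ighd1-1 on the bone marrow target. These are C57BL/6 bases, to which 98.4% of bone marrow joins could be mapped by sequence.
Site at 1.007 kb, chr12:114721372-114721430: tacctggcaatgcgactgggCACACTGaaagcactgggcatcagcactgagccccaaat
Site at 1.482 kb, chr12:114721846-114721904: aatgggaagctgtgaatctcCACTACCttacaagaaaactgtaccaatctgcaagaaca
Site at 1.964 kb, chr12:114722328-114722386: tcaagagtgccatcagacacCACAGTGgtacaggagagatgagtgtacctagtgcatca
Site at 3.154 kb, chr12:114723507-114723565: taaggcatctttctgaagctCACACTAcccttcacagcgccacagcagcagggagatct
Site at 3.504 kb, chr12:114723855-114723913: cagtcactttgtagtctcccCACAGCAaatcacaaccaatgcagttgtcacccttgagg
Site at 3.638 kb, chr12:114723985-114724043: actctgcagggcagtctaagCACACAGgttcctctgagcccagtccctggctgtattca
Site at 21.075 kb, chr12:114741440-114741498: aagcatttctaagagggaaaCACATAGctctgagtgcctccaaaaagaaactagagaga
Site at 35.285 kb, chr12:114755639-114755697: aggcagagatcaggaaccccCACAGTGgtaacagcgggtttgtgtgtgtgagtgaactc
Site at 48.868 kb, chr12:114762850-114762908: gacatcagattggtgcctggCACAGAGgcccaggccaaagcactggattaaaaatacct
Site at 50.254 kb, chr12:114764273-114764331: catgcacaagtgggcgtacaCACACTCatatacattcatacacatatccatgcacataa

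All 10 lie outside annotated genes of mm9. The 6 near sites fall between Ighd1-1 and Adam6b, a protein-coding gene that starts 7.35 kb from Ighd1-1 and is one of a pair, with Adam6a at 61.7 kb, that sits inside the heavy-chain locus. Of the V segments listed in the mm9 annotation used, the nearest to Ighd1-1 are Ighv2-1 and Ighv5-2, at 92.05 and 96.3 kb. V segments that this annotation lacks may lie nearer. The 2 strains differ in length here, so the sites named 48.868 and 50.254 kb start 42485 and 43908 bases from Ighd1-1 in mm9. Of these heptamers, those at 1.964 kb and 35.285 kb match CACAGTG at all 7 bases, those at 1.007 kb and 48.868 kb at 6, and that at 1.482 kb at 3. With a spacer of 12 bases, the sites at 21.075 kb and 50.254 kb carry a nonamer that matches the consensus at 6 of 9 bases, a match found beside 6.31% of the 1299 CAC positions on that strand of the mm9 interval. With a spacer of 23 bases the 1.482 kb site has 6 matches.

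Joins of the interval were concentrated at few sites. With positions within 2 bases taken as 1 site, and a site called recurrent at 10 or more joins in 3 or more libraries, 21 sites held 86.9% of the 4052 bone marrow joins and 18 sites held 96.7% of the 4241 v-Abl joins. The recurrent sites held 13 to 1027 joins in bone marrow, and the most used site left out held 20 joins from fewer than 3 libraries. A site spans several bases: at 1.007 kb the most used base held 186 of the 1027 joins. Of the recurrent sites, 10 were the same heptamer in both sources, which is 47.6% of the bone marrow list with 70.1% of its joins and 55.6% of the v-Abl list with 89.5% of its joins. These 10 shared sites all lay within 5 kb of Ighd1-1. The 2 sources differ in strain, cells and alignment target and were not tested against each other.

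The sequence lost beside a join began with CAC far more often than the interval offers. The CAC stood directly at the join in 25.9% of mapped bone marrow joins and 28.1% of v-Abl joins, and within 3 bases of it in 69.4% and 78.3%. Of all positions of the mm9 interval, 1.63% have CAC directly beside them on that strand and 5.99% within 3 bases, and in the first 5 kb the shares are 2.41% and 9.16%. Of the recurrent sites, 20 of 21 in bone marrow and 17 of 18 in v-Abl cells had a CAC heptamer within 3 bases of the join position used to choose it. Of these, 16 and 13 began CACA, which the choice by match to CACAGTG favours. That search looked to both sides of the position, while the shares of joins look only into the lost bases. The shares of all positions are therefore no background for these site counts. Recurrent sites at annotated D segments were kept in these counts. Among the named bone marrow sites, the share of joins with CAC within 3 bases ran from 21.7% at 48.868 kb to 100% at 50.254 kb. The first 5 kb hold 53 CACA on that strand and 1 full CACAGTG, the one at 1.964 kb, which held 176 bone marrow and 510 v-Abl joins against 1027 and 1110 at the most used sites, so the full heptamer was not the most used.

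Orientation was almost uniform. Deletional joins, which keep the V-side sequence in the orientation that removes the DNA between it and JH, were all but 28 of the bone marrow joins and all but 39 of the v-Abl joins. Of the 39, 13 fell at 1 site at 0.636 kb in 4 v-Abl libraries, and all joins of that site were inversional.

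The v-Abl interval includes 3 annotated D segments beyond Ighd1-1, and joins there are not cryptic. Ighd3-1 at 43.1 kb held 41 v-Abl joins, Ighd5-1 at 44.6 kb held 0 and Gm16968 at 45.8 kb held 1. In bone marrow, 27 joins mapped by sequence to Ighd5-1 and 27 to Gm16968, and these are not cryptic either. These 42 and 54 joins are kept in all counts below. Without the 54, the far joins described below differed between CBE12mut and WT by 223 per 100000.

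Depth differed between groups. Bone marrow libraries held 11105 to 98682 junctions and v-Abl libraries 13180 to 175957. A count of 3 joins amounts to 3.04 to 27.0 per 100000 in bone marrow and 1.70 to 22.8 in v-Abl cells. It would be the most that a library with none can hide if all rows were separate joins. Repeated rows are common: the 4052 bone marrow joins came down to 1382 distinct joins (same position, strand, bait end and inserted bases counted once per library), and the 4241 v-Abl joins to 1731. Read names put the CBE2mut and CBE2inv libraries in a sequencing run with no WT library, so a difference of either from WT cannot be told apart from one between runs. The other 4 bone marrow genotypes shared a run.

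The first comparison asks how often the interval was joined in each IGCR1 genotype. In WT bone marrow the 3 libraries held 295, 486 and 488 interval joins per 100000 junctions. CBE1inv libraries held 689, 495 and 646, all above WT. CBE12mut libraries held 263, 319 and 204 and overlapped WT. CBE1mut libraries held 256, 191 and 257, all below WT. CBE2mut libraries held 168, 243 and 193 and CBE2inv libraries 88.5, 64.0 and 290, also below WT throughout. The group means were 423 ± 111 (SD, n = 3) in WT, 610 ± 102 in CBE1inv, 262 ± 57.3 in CBE12mut, 235 ± 37.7 in CBE1mut, 201 ± 38.3 in CBE2mut and 147 ± 124 in CBE2inv.

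Exact two-sided permutation tests over 20 relabelings gave p = 0.1, the smallest that 3 against 3 libraries allow, for CBE1inv (1.44 times WT), CBE1mut, CBE2mut and CBE2inv against WT and for CBE1inv against CBE1mut (2.60 times), with an adjusted p of 0.16 over the 8 contrasts. CBE12mut gave an exact p of 0.2 against WT and 0.4 against CBE1mut, and CBE2inv 0.5 against CBE2mut. In the limma fit over 11 zones of the locus, on log2(junctions per 100000 + 1), the interval fell in CBE2inv against WT (log2 change -1.79, SE 0.42, adjusted p = 0.00335), where 45.5% of zones were called, and was higher in CBE1inv than in CBE1mut (1.37, SE 0.42, adjusted p = 0.0115), where 54.5% were called. It was not called against WT for CBE12mut (-0.68, adjusted p = 0.21), CBE1mut (-0.82, 0.115), CBE1inv (0.55, 0.382) or CBE2mut (-1.05, 0.0757), nor for CBE12mut against CBE1mut (0.15, 0.808) or CBE2inv against CBE2mut (-0.75, 0.163). The CBE2inv call was lost with only the 2 groups in the fit (adjusted p = 0.0824), and that of CBE1inv against CBE1mut with median-of-ratios scaling (adjusted p = 0.268).

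The base of the rate decides the direction for both CBE1-deficient genotypes, since D joins made up less of their libraries than of WT. Per 100000 D joins instead of all junctions, the interval held 658 ± 159 in WT, 2040 ± 654 in CBE12mut and 868 ± 120 in CBE1mut. The differences from WT were then 1382 (exact permutation p = 0.1) and 210 (0.2), against -161 and -189 per 100000 of all junctions. CBE1inv lay above WT on both of these scales, at 1190 ± 193 per 100000 D joins, and CBE2mut (405 ± 50.1) and CBE2inv (288 ± 229) had lower means than WT on both, although CBE2inv overlapped WT per D join (exact permutation p = 0.2). Per 100000 distinct junctions, a count chosen after seeing the data, CBE1inv overlapped WT, with means of 682 and 542 (exact permutation p = 0.4). On that count CBE12mut (274) lay below WT without overlap (0.1), and CBE2inv (201) overlapped it (0.2).

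Positions within the interval differed between genotypes too. In WT, 1.28%, 0.709% and 2.05% of interval joins lay more than 5 kb from Ighd1-1. In CBE12mut the shares were 91.3%, 92.4% and 98.0%. In CBE1mut they were 24.7%, 40.1% and 30.5%, and in CBE1inv 5.48%, 8.81% and 4.03%. CBE12mut, CBE1mut and CBE1inv thus lay apart from WT and from each other without overlap (exact permutation p = 0.1 for each against WT, adjusted p = 0.133 over 8 contrasts). In CBE2mut the shares were 5.66%, 11.1% and 35.0%, and in CBE2inv 8.70%, 0% and 0%. All CBE2mut libraries thus lay above all WT libraries as well (exact p = 0.1, adjusted p = 0.133). The 35.0% stood on 28 joins that were only 2 distinct joins.

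**Figure D1:**
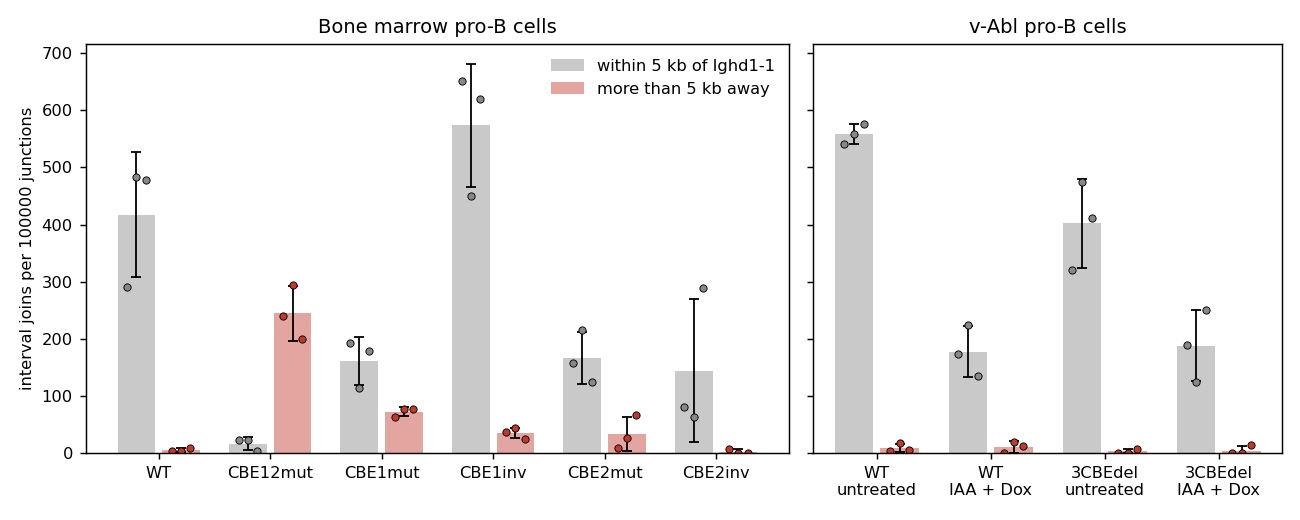
Interval joins per 100000 junctions within 5 kb of Ighd1-1 (grey) and farther away (red); bars are means, error bars SD, points the 3 libraries of each group. In CBE12mut the near joins averaged 17.0 per 100000 against 418 in WT and the far joins 245 against 5.74; in all v-Abl groups nearly all joins were near.

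Per 100000 junctions, far joins averaged 5.74 ± 3.70 in WT and 2.57 ± 4.44 in CBE2inv. The CBE12mut mean was 245 ± 47.5, that of CBE1mut 72.9 ± 8.31, that of CBE1inv 35.8 ± 8.92 and that of CBE2mut 34.7 ± 29.8. CBE12mut was 42.6 times WT, CBE1mut 12.7 times and CBE1inv 6.23 times, each without overlap (exact permutation p = 0.1, adjusted p = 0.133 over 8 contrasts). The size of these ratios rests on few WT joins and on the base. Per D join they were 216, 30.8 and 7.92, and with distinct joins 19.8, 6.94 and 3.85, also without overlap. Without the third WT library they were 67.8, 20.2 and 9.91. CBE12mut was 3.36 times CBE1mut, and CBE1inv 0.491 times CBE1mut, again without overlap and with the same p. CBE2inv lay below CBE2mut in all libraries (exact p = 0.1), but they overlapped with distinct joins (exact p = 0.2). CBE2inv libraries held 2, 0 and 0 far joins and CBE2mut libraries 3, 3 and 28, too few to order the libraries. CBE2mut (0.2) and CBE2inv (0.5) overlapped WT, although per D join CBE2mut lay above WT without overlap (exact p = 0.1). Counted as distinct joins, 9 of 361 WT joins were far, 168 of 176 in CBE12mut and 63 of 176 in CBE1mut. CBE1inv had 42 of 565, CBE2mut 6 of 57 and CBE2inv 1 of 47.

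Per 100000 of all junctions, near joins had lower means than WT in both CBE1-deficient genotypes. They averaged 418 ± 109 per 100000 in WT, against 17.0 ± 11.2 in CBE12mut and 162 ± 41.7 in CBE1mut. CBE1inv averaged 574 ± 108, CBE2mut 167 ± 45.9 and CBE2inv 145 ± 126. Per 100000 D joins, near joins were 472, 770 and 707 in WT and 691, 438 and 664 in CBE1mut, which overlap, and 188, 199 and 27.0 in CBE12mut, all lower. Near joins were 942 in WT, and in CBE12mut only 38 joins remained, of which 8 were distinct.

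**Figure D2:**
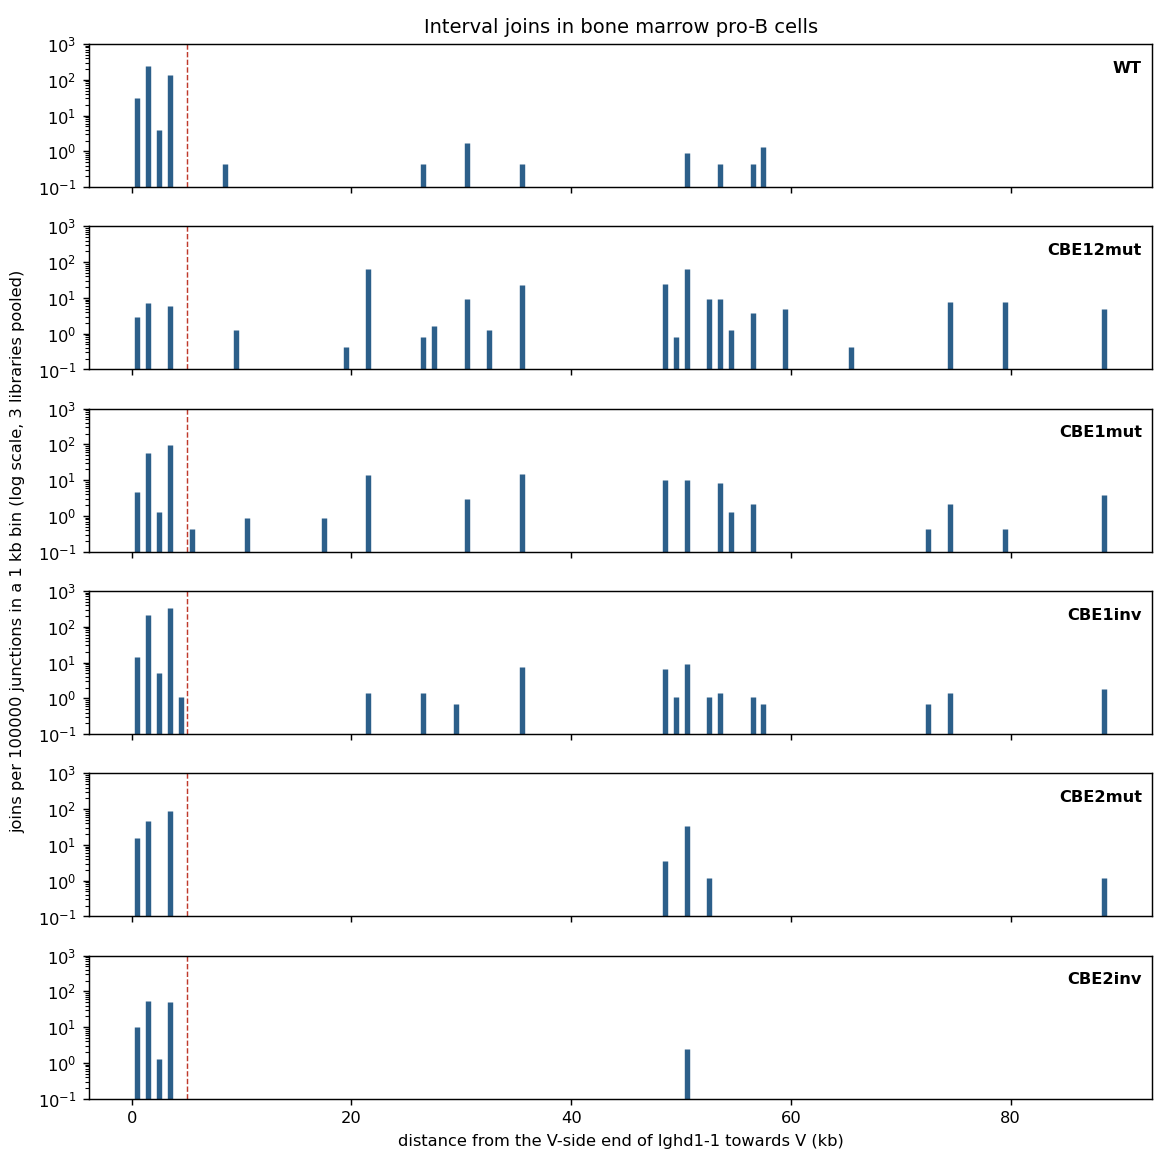
Joins per 100000 junctions in 1 kb bins across the interval (log scale, 3 libraries of a genotype pooled), with a dashed line at 5 kb. All genotypes except CBE12mut have most joins in the first 4 kb. CBE12mut and CBE1mut have peaks near 21, 35, 49 and 51 kb. CBE1inv has lower values near 35, 49 and 51 kb (7.52, 6.44 and 8.95 per 100000). CBE2mut has a peak near 51 kb (34.5 per 100000), with 28 of its 29 joins from 1 library.

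The most used near site, at 1.007 kb, held 114, 212 and 232 joins per 100000 in WT libraries and 154, 166 and 138 in CBE1inv, which overlap. In CBE1mut it held 38.5, 24.7 and 64.3, and in CBE12mut 6.75, 11.3 and 4.12. CBE2inv libraries held 30.8, 34.7 and 69.3 and CBE2mut libraries 72.8, 54.0 and 4.83. All other genotypes except CBE1inv thus lay below all WT libraries at this site. The site at 1.964 kb, with the full heptamer, was even in WT at 32.7, 37.95 and 37.8 and was without a join in CBE12mut. With 3 joins set over the CBE12mut group, WT was 29.1-fold higher, on 82 joins of which 33 were distinct. This fold and those like it below count repeated rows as separate joins, so they are not lower bounds. At 1.482 kb, WT held 13 joins, CBE1inv 41, and CBE12mut and CBE1mut 0. At 3.504 kb, 32 of the 43 CBE1inv joins came from 1 library.

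The site at 3.154 kb separated the genotypes by CBE2. It held 66.6, 121 and 85.6 joins per 100000 in WT, 89.5, 58.6 and 96.5 in CBE1mut and 216, 147 and 294 in CBE1inv, where every library lay above every WT and CBE1mut library. It held no join in any of the 9 CBE12mut, CBE2mut and CBE2inv libraries. With 3 joins set over each group, these groups were 70.9-fold, 24.7-fold and 23.3-fold lower than WT. The 200 WT joins here were 97 distinct joins. The neighbouring site at 3.638 kb, by contrast, held joins in both CBE2 genotypes: 47.5, 90.0 and 79.6 in CBE2mut and 19.2, 21.3 and 139 in CBE2inv, against 23.9, 27.6 and 50.1 in WT and 111, 60.8 and 88.6 in CBE1inv. In CBE12mut 1 library held 16.2 and the others 0.

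A CTCF-like sequence was looked for on both strands of the mm9 interval, and 2 matches were found. The capitals are the letters required at those places, and the lower-case places could hold any base.
Match at 3.076 kb, minus strand, chr12:114723479-114723492: CCACaAGagGGcAG
Match at 5.696 kb, plus strand, chr12:114726099-114726112: CCACaAGggGGaAG
They face in opposite directions. Of the 1477 windows of this length on chromosome 12, 16.2% hold 1 or more matches and 2.37% hold 2 or more. The labels do not say where CBE1 and CBE2 lie or which bases were changed, so neither match is assigned to an element. The heptamer of the 3.154 kb site starts 3142 bases from Ighd1-1 in mm9, close to the first match, and whether its bases are intact in the 3 genotypes without joins there was not tested. A match describes these letters and does not show that a factor binds.

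At the most used far sites CBE12mut had the highest mean. Sites were named by their joins over all groups. CBE12mut held 145 of the 180 joins at 21.075 kb and 128 of the 176 at 50.254 kb. A high CBE12mut value there thus follows in part from the choice, and the folds below describe rather than support. The site at 21.075 kb held 55.3, 70.8 and 55.7 joins per 100000 in CBE12mut and 4.13, 23.4 and 12.9 in CBE1mut. It held 1.18, 0 and 3.13 in CBE1inv and none in WT, CBE2mut or CBE2inv. With 3 joins set over the WT group, CBE12mut was 45.5-fold above WT, on 145 joins of which 44 were distinct. The site at 50.254 kb held 39.1, 73.6 and 48.4 in CBE12mut, 2.75, 0 and 18.01 in CBE1mut and none in WT. Here CBE12mut was 40.1-fold above WT by the same count of 3, on 128 joins of which 27 were distinct. At this site CBE2mut had 0, 9.005 and 67.6, where the last value is 28 reads of few distinct joins. The CBE12mut libraries lay above all libraries of the other genotypes at 21.075 kb. At 50.254 kb they did so except for that 1 CBE2mut library.

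The sites at 35.285 kb and 48.868 kb differed less between CBE12mut and CBE1mut. At 35.285 kb the CBE12mut libraries held 24.3, 21.2 and 5.15 and the CBE1mut libraries 24.8, 14.3 and 6.43, which overlap, and WT held 1 join. At 48.868 kb the values were 14.8, 17.0 and 13.4 in CBE12mut, 6.88, 13.02 and 0 in CBE1mut and 3.54, 12.2 and 0 in CBE1inv, and WT held none.

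**Figure D3:**
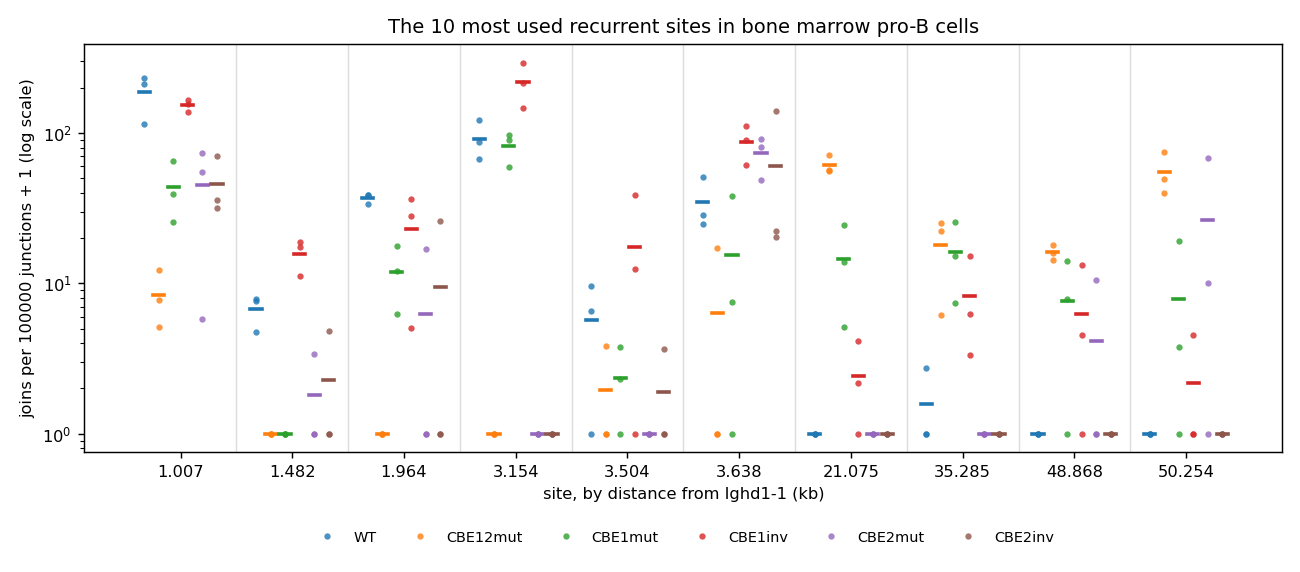
Joins per 100000 junctions + 1 (log scale) at each of the 10 most used bone marrow sites, 1 point per library, with the group mean of 3 libraries as a line. WT and CBE1inv are highest at 1.007 and 1.964 kb and CBE12mut at 21.075 and 50.254 kb; at 3.154 kb CBE12mut, CBE2mut and CBE2inv have no join.

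To test positions against the whole chromosome, junctions in 1 kb bins of chromosome 12 were fitted with limma voom. In bone marrow 196 bins passed the filter of 10 joins in 3 libraries, 7 of them in the interval. The 4 far bins and the bin from 0 to 1 kb passed only through genotypes where they are high, so a difference there had to follow: they are given by their joins, with no test, and the counts of calls below that include them describe rather than support. CBE12mut against WT called 7 of the 7 interval bins, where 85.7% of all bins were called. Higher calls made up 6.63% of all bins and lower calls 79.1%. The median log2 change over all bins was -2.003. No median is given for the 7 interval bins, since most of them passed the filter only through genotypes where they are high.

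The bin of the 21.075 kb site held 151 CBE12mut joins and no WT join, and the bin of the 50.254 kb site 158 against 2. The bin from 35 to 36 kb held 56 against 1 and the bin from 48 to 49 kb 60 against 0. The bins from 1 to 2 kb and from 3 to 4 kb passed through other genotypes too, and in limma voom they fell in CBE12mut, with log2 changes of -5.04 (adjusted p = 6.73e-07) and -5.50 (1.46e-05). With median-of-ratios scaling, which moved the median of all bins by 1.94 in log2, 4 interval bins were called higher and 2 lower, and the calls over all bins went from 13 higher and 155 lower to 24 higher and 8 lower.

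CBE1mut against WT called 5 of 7 interval bins, with 58.2% called over all, 5.1% higher and 53.1% lower. The bin from 1 to 2 kb fell (log2 change -2.10) and that from 3 to 4 kb was at -0.45 (limma voom adjusted p = 0.316). With median-of-ratios scaling no interval bin was called lower, and the calls over all bins went from 10 higher and 104 lower to 12 higher and 0 lower. CBE1inv against WT called 1 of 7, the bin from 3 to 4 kb (1.31, adjusted p = 0.0135), with 8.67% called over all, 3.06% higher and 5.61% lower. CBE2mut called 1 of 7 (from 1 to 2 kb, -2.97, adjusted p = 0.000907), with 10.7% over all, 4.59% higher and 6.12% lower, and CBE2inv 1 of 7 (the same bin, -2.14, adjusted p = 0.0115), with 5.1% over all, 2.55% higher and 2.55% lower. The same scaling changed the split over all bins from 6 higher and 11 lower to 5 and 2 in CBE1inv, from 9 and 12 to 11 and 2 in CBE2mut, and from 5 and 5 to 1 and 3 in CBE2inv.

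Between mutants, CBE12mut against CBE1mut called 4 of 7 interval bins, with 50% called over all, 5.1% higher and 44.9% lower. The bins from 1 kb (log2 difference -2.94) and 3 kb (-5.04) were lower in CBE12mut. CBE1inv against CBE1mut called 3 of 7, with 41.8% over all, 37.8% higher and 4.08% lower. The bins from 1 kb (1.95) and 3 kb (1.77) were higher in CBE1inv. CBE2inv against CBE2mut called 0 of 7 in limma voom, with 3.06% over all, 1.53% higher and 1.53% lower. Median-of-ratios scaling changed the split over all bins from 10 higher and 88 lower to 19 and 3 in the first of these contrasts, from 74 and 8 to 0 and 11 in the second, and from 3 and 3 to 3 and 7 in the last. Under it, 3 interval bins were called higher and 1 lower in the first, and only 1 bin, lower, in the second.

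A join to JH4 can carry a D segment between the site and JH, which is read from the inserted bases. A D was called readable where a run of at least 8 bases matched 1 of the 21 D segments of mm9, so short or trimmed D remnants are missed, and the files keep no insertion over 30 bases. In WT 54.5%, 53.9% and 55.8% of interval joins had a readable D. CBE12mut libraries had 16.9%, 23.6% and 18.2%, below all WT libraries, and CBE1mut libraries 53.2%, 41.5% and 45%, also below. CBE1inv had 54.8%, 54.1% and 52.3%. The exact permutation p was 0.1 for CBE12mut and CBE1mut against WT and for CBE12mut against CBE1mut, with an adjusted p of 0.267 over 8 contrasts, and 0.5 for CBE1inv against WT. Without the bone marrow joins at annotated D segments, the exact permutation p was 0.2 for CBE1mut against WT (-7.67 points). It stayed at 0.1 for CBE12mut against WT (-33.9 points) and against CBE1mut (-26.3 points). In CBE2mut the libraries had 73.6%, 33.3% and 25% and in CBE2inv 30.4%, 87.5% and 63.0%, and both overlapped WT (exact p = 0.4 and 0.7). CBE1inv against CBE1mut (0.2) and CBE2inv against CBE2mut (0.6) overlapped too.

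The sites differed in this share. Of the distinct joins, a D was readable in 184 of 343 at 1.007 kb (53.6%, exact 95% binomial interval 48.2% to 59.0%), in 194 of 362 at 3.154 kb, 90 of 146 at 3.638 kb and 42 of 69 at 1.964 kb. At 21.075 kb it was readable in 0 of 60, which allows a share of up to 5% by a count of 3 (the exact 95% interval reaches 5.96%), and at 50.254 kb in 2 of 38 (5.26%, 0.644% to 17.7%). At the other far sites a D was readable in 17 of 34 (35.285 kb) and 17 of 21 (48.868 kb). The intervals cover counting error only. The pair of sites with almost no D had a median of 3 and 5.5 inserted bases, against 14 to 20 at the 8 others. They are also the pair whose heptamer is followed, at a spacer of 12 bases, by 6 of 9 nonamer bases, while the 8 others have 0 to 4 matches there.

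**Figure D4:**
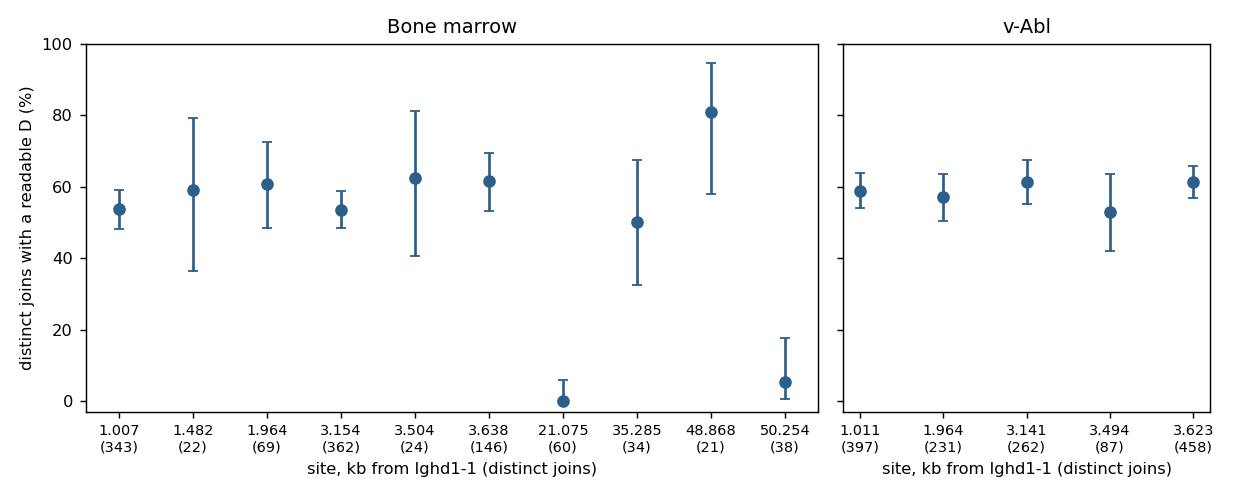
Percent of distinct joins with a readable D at each named site, with exact 95% binomial intervals; numbers in brackets are distinct joins. All sites lie at 50% or above except those at 21.075 kb (0 of 60) and 50.254 kb (2 of 38).

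Within 5 kb of Ighd1-1, a D was readable in 190 of 352 distinct WT joins, 54 of 113 in CBE1mut and 284 of 523 in CBE1inv. Beyond 5 kb the CBE1inv joins had one in 18 of 42 (42.9%, exact 95% binomial interval 27.7% to 59.0%), the CBE1mut joins in 18 of 63 (28.6%) and the CBE12mut joins in 39 of 168 (23.2%). Of the 1382 distinct bone marrow joins, 48 carried Ighd1-1 itself as the D.

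In v-Abl cells the comparison asks what the IAA and Dox treatment, which acts on the WAPL degron, and the 3IghCBEs deletion did to the joins of the interval. Untreated WT libraries held 546, 578 and 582 interval joins per 100000 junctions, and treated WT libraries 174, 243 and 149, all lower. Untreated 3CBEdel libraries held 322, 477 and 420, and treated ones 190, 125 and 266, again all lower. The means were 568 ± 19.8 and 188 ± 48.9 in WT and 406 ± 78.3 and 194 ± 70.3 in 3CBEdel. Treated libraries were shallower, and their interval joins were 38, 76 and 43 in WT and 42, 26 and 35 in 3CBEdel.

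In the zone fit the interval fell with treatment of WT (limma adjusted p = 0.000268, log2 change -1.62 with an SE of 0.27) and in 3CBEdel (-1.11, SE 0.27, adjusted p = 0.00272), where 100% of the 11 zones were called in either line. The exact permutation p was 0.1 for each (adjusted 0.125 over 5 contrasts). Within the run that held 1 untreated and 1 treated WT library, the values were 546 and 174, and within the run that held 1 library of each 3CBEdel kind they were 420 and 266. Per 100000 D joins the treated means were also lower, at 211 ± 54.8 against 586 ± 21.4 in WT and 211 ± 78.4 against 417 ± 80.2 in 3CBEdel. The size of the difference depended on how joins were counted. The treated mean was 3.02-fold lower in WT and 2.10-fold lower in 3CBEdel per 100000 junctions. Per 100000 distinct junctions, a count chosen after seeing the data, it was 8.08-fold lower in WT (697 against 5634) and 5.05-fold lower in 3CBEdel (781 against 3943). Neither line showed overlap (exact permutation p = 0.1). Distinct interval joins were 1058 of 2597 untreated and 58 of 157 treated in WT, and 572 of 1384 and 43 of 103 in 3CBEdel. These shares are alike, so the larger folds reflect the base, which shrank more in untreated libraries.

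Untreated 3CBEdel libraries lay below all untreated WT libraries (0.714 times, exact permutation p = 0.1), but the zone fit made no call (log2 change -0.50, adjusted p = 0.263) except with limma voom (adjusted p = 0.00609). Treated 3CBEdel and treated WT overlapped, with a difference of 5.06 per 100000 (exact p = 1; zone fit adjusted p = 0.992). The difference between the treatment effects was 167 per 100000 (exact p = 0.08 over 400 relabelings; zone fit 0.51, adjusted p = 0.356). That p was 0.02 to 0.165 with 1 library left out, and it passed 0.05 without the second treated WT library or without the second treated 3CBEdel library.

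The 5 most used v-Abl sites are the ones printed above at 3.638, 1.007, 3.154, 1.964 and 3.504 kb, here placed at 3.623, 1.011, 3.141, 1.964 and 3.494 kb. In untreated WT they were even across libraries: 146, 144 and 166 joins per 100000 at 3.623 kb, 118, 108 and 119 at 1.011 kb, 83.3, 88.8 and 86.4 at 3.141 kb and 70.4, 73.9 and 72.2 at 1.964 kb. In treated WT the same sites held 45.8, 60.8 and 10.4, then 54.9, 44.8 and 69.1, then 41.2, 67.1 and 10.4, then 4.58, 35.2 and 13.8. At each of these 4 sites all treated WT libraries lay below all untreated ones. At 3.494 kb the mean was 36.1 per 100000 in untreated WT (158 joins) and 3.05 in the shallower treated WT (2 joins).

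In 3CBEdel the site at 3.623 kb held 92.1, 105 and 121 untreated and 45.2, 38.5 and 45.5 treated. At 1.011 kb the values were 85.0, 128 and 96.4 and 86.0, 38.5 and 75.9, which overlap. At 1.964 kb they were 25.2, 55.5 and 57.9 and 18.1, 19.2 and 30.3, which overlap. At 3.141 kb they were 68.5, 71.5 and 72.3 and 40.7, 4.81 and 60.7, with no overlap. Single treated libraries held 1 to 21 joins at each of the 4 sites from 1.011 to 3.141 and at 3.623 kb, so their values are coarse.

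**Figure D5:**
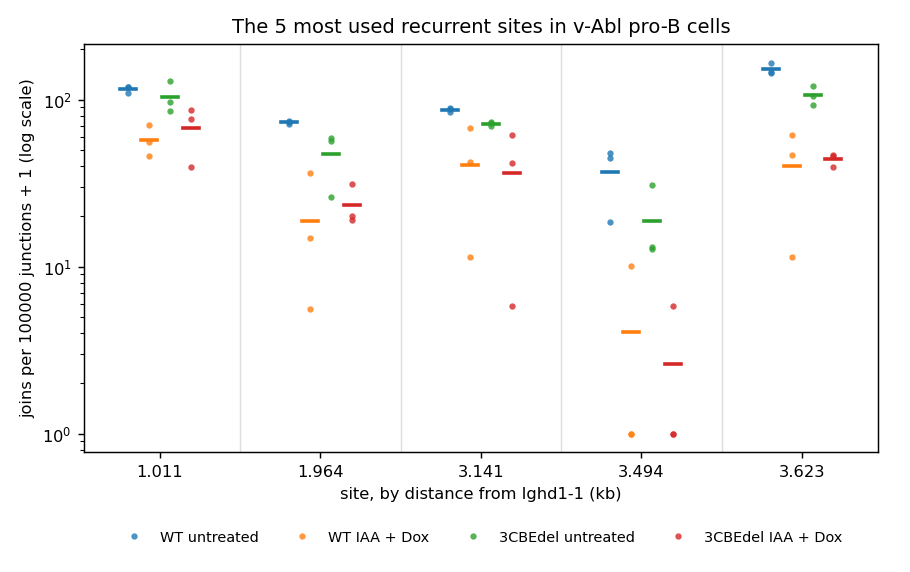
Joins per 100000 junctions + 1 (log scale) at the 5 most used v-Abl sites, 1 point per library and a line at the mean of 3. Treated libraries lie below untreated WT libraries at all 5 sites.

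In the 1 kb bins of chromosome 12, 90 passed in v-Abl cells and 4 of these were in the interval. The bins from 0 to 1 and 2 to 3 kb passed only through untreated libraries, so a lower treated value there had to follow and they are given no test. Counts of calls below that include them describe rather than support. Treatment of WT called 3 of the 4 in limma voom, all lower: those from 1 to 2 kb (-1.39) and 3 to 4 kb (-2.06), and that from 2 to 3 kb. Of all bins 83.3% were called, 73.3% higher and 10% lower. Treatment of 3CBEdel called 1 of 4 (-1.39 from 3 to 4 kb, adjusted p = 0.0193), with 74.4% called over all, 68.9% higher and 5.56% lower. 3CBEdel against WT called 0 of 4 untreated, with 3.33% called over all (1.11% higher, 2.22% lower), and 0 of 4 treated, with 1.11%. The difference of the treatment effects called 0 of 4 and 0% over all in limma voom. With median-of-ratios scaling 4 of 4 interval bins were called lower with treatment in either line, but those from 0 to 1 and 2 to 3 kb are among them. The split over all bins went from 66 higher and 9 lower to 50 and 22 in WT and from 62 and 5 to 43 and 19 in 3CBEdel.

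Far joins were rare in v-Abl cells: 42 joins (15 distinct) in untreated WT, 10 (2 distinct) in treated WT, 11 (6 distinct) in untreated 3CBEdel and 2 (1 distinct) in treated 3CBEdel. Of these, 24, 10, 7 and 0 lay at Ighd3-1, a D segment, and are not cryptic. The far joins are too few as distinct joins to compare between groups. A D was readable in 57.9% ± 5.33 of interval joins in untreated WT, 47.5% ± 12.5 in treated WT, 56.9% ± 5.26 in untreated 3CBEdel and 64.2% ± 23.5 in treated 3CBEdel, and no pair of groups compared was without overlap (exact permutation p = 0.3, 0.6, 0.8 and 0.3 for the 4 contrasts and 0.28 for the difference of the treatment effects).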

How the data were processed

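HTGTS-V(D)J-seq libraries from JH4 were analysed in 30 samples. Per the file headers, the deposited tables hold 1 line for each read with a junction and give its position, strand and inserted bases; these positions are neither counts nor scores, and no line was marked as a duplicate. Per the submitters' processing notes, reads were aligned with Bowtie2 (version not stated) to mm9, and, per the labels, the bone marrow reads to a hybrid of mm9 and another Igh sequence. Joins in the interval were counted per 100000 junctions of a library. Positions within 2 bases were linked into sites, and sites were placed on mm9 by matching sequence. The 10 most used bone marrow sites and 5 most used v-Abl sites are named. Comparisons between groups used exact permutation tests (two-sided) of library values and limma 3.58.1 (R 4.3.3) on 11 zones with a pseudocount of 1. Limma voom was used on 1 kb bins with at least 10 joins in 3 libraries. Adjustment was by Benjamini-Hochberg, with a threshold of 0.05. Only the fit of the bins was tested on simulated data. Replicate numbers did not pair the samples. The members and lists were chosen with earlier results of these data known.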

Additional observations from a re-analysis of the deposited data

How the results depend on the processing

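Of 474 alternatives tried over 72 results, 415 counted as unchanged and 59 did not. Of 492 fits without 1 library, 455 counted as unchanged. Unchanged meant the same direction and side of the threshold or, for the number of bins called, a similar number. Exact tests between 2 groups cannot give a p below 0.1, so for these only the direction could change. The tallies are therefore no measure of how firm those p-values are. Why a value moved was not tested unless the setting's own construction shows it. Per 100000 D joins, the rate difference from WT was 1382 for CBE12mut and 210 for CBE1mut, and 3CBEdel minus WT, treated, was -0.783; with rows of the same prey position, orientation and read ends counted once (collapsed rows) it was -18.1. With distinct joins, an alternative chosen after seeing the data, the difference of the treatment effects was 1775 per 100000 distinct junctions (exact permutation p = 0.025) and the far share of CBE2inv minus WT was -0.257 percentage points. With the limit at 2 kb, far joins differed by -23.8 (CBE2mut minus WT) and 208 (CBE1inv minus CBE1mut) per 100000. With a D run of 10 bases, the readable share differed by -0.177 points (CBE2inv minus WT) and 3.20 points (3CBEdel minus WT, untreated). A CAC within 3 bases instead of directly at the join stood at 63.5% (bone marrow) and 81.6% (v-Abl) as a mean over libraries, by construction.

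In the zone fit (log2), distinct joins gave called values of -0.94, -1.03 and -1.12 for CBE12mut, CBE1mut and CBE2mut against WT; limma voom gave -0.82 for CBE1mut, -1.08 for CBE2mut and -0.51 for untreated 3CBEdel against WT, and -0.034 treated; fitting only the groups compared gave called values of -0.68, -0.82 and -1.05 for those 3 genotypes and lost CBE2inv (-1.79). Median-of-ratios scaling gave 0.76 for CBE12mut minus WT, 0.73 for CBE1inv minus CBE1mut (call lost), -1.10 for CBE2inv minus CBE2mut (called) and -0.15 for 3CBEdel minus WT, treated. The last was -0.12 with collapsed rows and -0.18 with run as a term.

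The number of bins called changed with median-of-ratios scaling to 32, 12, 7, 13 and 4 for CBE12mut, CBE1mut, CBE1inv, CBE2mut and CBE2inv against WT (168, 114, 17, 21 and 10 otherwise), to 22 and 11 for CBE12mut and CBE1inv against CBE1mut (98 and 82), to 10 for CBE2inv minus CBE2mut (6) and to 1 for untreated 3CBEdel minus WT (3). With limma trend it was 8 for CBE1inv minus WT, 42 for CBE1inv minus CBE1mut, 10 for CBE2inv minus CBE2mut, and 0 untreated and 4 treated for 3CBEdel minus WT. With only the groups compared it was 12 for CBE2mut minus WT, 2 for CBE2inv minus CBE2mut, 35 for treatment of 3CBEdel (67), and 11 untreated and 2 treated for 3CBEdel minus WT. Collapsed rows gave 10 untreated, 4 treated (1) and 1 for the difference of the treatment effects (0); distinct joins gave 48 for treatment of WT (75), 44 for treatment of 3CBEdel, then 10, 6 and 3; run as a term gave 1 untreated.

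Without 1 library, bins called were 8 to 12 for CBE1inv, 11 to 32 for CBE2mut and 6 to 10 for CBE2inv against WT, 47 to 70 for CBE1inv minus CBE1mut, 1 to 24 for CBE2inv minus CBE2mut, 1 to 5 untreated and 1 to 2 treated for 3CBEdel minus WT, and 0 to 1 for the difference of the treatment effects. Zone values were -1.29 to -0.93 for CBE2mut minus WT, -0.0061 to 0.31 for CBE12mut minus CBE1mut, -1.39 to -0.31 for CBE2inv minus CBE2mut and -0.26 to 0.28 for 3CBEdel minus WT, treated. Rates differed by -1.27 to 56.0 for CBE12mut minus CBE1mut, -30.9 to 39.3 for 3CBEdel minus WT, treated, and 125 to 203 for the difference of the treatment effects. The far share of CBE2inv minus WT was -1.35 to 3.00 points, and the readable D share -7.99 to 20.5 points there and -3.74 to 1.92 points for untreated 3CBEdel minus WT.

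Same-numbered libraries did not deviate together (mean correlation 0.0241 over 45 bone marrow pairs and 0.0197 over 18 v-Abl pairs). A replicate block changed 2 of 26 fits: bins called were 2 for 3CBEdel minus WT, treated, and 1 for the difference of the treatment effects. Depth limits the CBE2mut, CBE2inv and treated v-Abl libraries, whose interval joins number 23 to 80 per library.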
